A study of Mus musculus with 32 samples.

Results

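The regions described here were called in H3K9me3 peaks of male germ cells of both genotypes at birth. At 3 days they were still called in Morc1 heterozygous cells but fell below the calling rule in Morc1 knockout cells. They were found by dividing the autosomes into 1 kb bins counted from position 0. A bin was called in a peak list when at least 50% of it lay in peaks of that list. Members were chosen by the P0 and P3 peak calls: bins called in both P0 lists and in the P3 het list, and not in the P3 KO list. Of 2460020 autosomal bins up to the last peak of each chromosome, 260866 (10.6%) were called in both P0 lists, and 12662 of these were members. They formed 9463 runs of adjacent bins. Every value from those 4 lists is therefore a description, given with no test.

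H3K9me3, trimethylation of histone H3 at lysine 9, marks compacted, silent chromatin and covers repeats, transposable elements and clusters of repeated genes. In male germ cells around birth, DNA methylation is rebuilt genome-wide while transposable elements are kept silent by H3K9me3, piRNAs and other factors. Morc1 encodes a nuclear ATPase of the MORC family that is made in male germ cells and is known for its part in transposon silencing.

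The study profiled H3K9me3 by ChIP-seq in male germ cells from testes of mice carrying the Mvh-Venus transgene, a fluorescent reporter for germ cells. The groups used here were Morc1 (+/-), called het, and Morc1 (-/-), called KO, each at the embryonic stages E13.5 and E16.5 and on postnatal days 0 (P0) and 3 (P3). All groups carried the reporter, and the controls were het, with no wild-type group among the samples. Each group had 2 H3K9me3 samples but 1 peak list without a replicate name, so there was no replicate error and no test between genotypes or stages could be made. Another 16 samples with an antibody to histone H3 entered no comparison. Peak lists hold no expression values, so neither the cell type nor the knockout was checked here.

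Read depth was unknown, and the lists differed in size. Autosomal peaks numbered 77632 in P3 het and 82590 in P3 KO, and called bins made up 11.3% of the autosomes in P3 het and 12.3% in P3 KO. Members are thus bins missing from the larger of the P3 lists. Shares are given with 95% Wilson intervals, which cover counting error only and treat neighbouring bins as independent, which they are not. The range over the 19 autosomes is therefore given beside them.

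Among members that lay over a gene start, the promoter could be shown. RefSeq promoters on GRCm38.p6, the assembly also called mm10, run from 250 bases before to 50 bases after a gene start. Of 31396 autosomal promoters, 41 (of 40 genes, 17 of the promoters belonging to protein-coding genes) lay entirely in member bins. They were poor in CpG, with a median of 1 CpG per 300 bases against 7 over all autosomal promoters. At least 10 CpG were found in 3 of 41 (7.32%), against 44.0% of all promoters. The 947 promoters in bins kept in both genotypes were also poor in CpG, with a median of 2 CpG and 2.43% at 10 or more. The median was 2 as well in the 128 promoters in bins remaining only in KO and the 112 in bins lost in both. In these sets 4.69% and 14.3% had 10 or more. The following 4 were picked after their values were seen. Vmn2r82 lies in the longest member run over a promoter, Olfr730 was called in all embryonic lists, Olfr722 has no CpG, and Lrrc23 has the most CpG among the protein-coding promoters. Each is printed 5′ to 3′ with CpG in capitals.
Vmn2r82: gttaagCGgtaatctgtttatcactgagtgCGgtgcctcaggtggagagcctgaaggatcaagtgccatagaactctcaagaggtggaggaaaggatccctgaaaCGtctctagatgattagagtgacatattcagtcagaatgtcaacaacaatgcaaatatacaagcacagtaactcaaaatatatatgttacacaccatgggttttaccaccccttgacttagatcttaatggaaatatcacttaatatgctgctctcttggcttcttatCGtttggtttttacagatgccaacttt
Olfr730: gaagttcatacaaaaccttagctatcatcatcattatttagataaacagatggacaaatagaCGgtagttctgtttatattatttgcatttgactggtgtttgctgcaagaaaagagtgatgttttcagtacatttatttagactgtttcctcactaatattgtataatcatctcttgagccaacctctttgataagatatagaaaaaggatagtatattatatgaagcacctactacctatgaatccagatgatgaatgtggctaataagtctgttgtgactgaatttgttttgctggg
Olfr722: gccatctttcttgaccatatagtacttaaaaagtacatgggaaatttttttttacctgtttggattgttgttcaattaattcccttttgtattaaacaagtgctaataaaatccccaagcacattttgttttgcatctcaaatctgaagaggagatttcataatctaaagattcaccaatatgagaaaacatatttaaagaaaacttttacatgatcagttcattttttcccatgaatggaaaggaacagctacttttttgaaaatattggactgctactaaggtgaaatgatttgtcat
Lrrc23: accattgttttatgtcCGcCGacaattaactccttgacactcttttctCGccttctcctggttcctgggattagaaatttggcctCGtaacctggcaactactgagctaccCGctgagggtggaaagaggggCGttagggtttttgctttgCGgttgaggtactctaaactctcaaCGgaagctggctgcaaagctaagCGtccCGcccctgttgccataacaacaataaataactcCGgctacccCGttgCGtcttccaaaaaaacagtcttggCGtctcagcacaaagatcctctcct

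The Vmn2r82 promoter (chr10:79356341-79356640, plus strand) belongs to a vomeronasal pheromone receptor gene. All 300 bases lay in peaks of E16.5 het, E16.5 KO, P0 het, P0 KO and P3 het, and none lay in peaks of E13.5 het, E13.5 KO or P3 KO. The promoter of Olfr730 (chr14:50187169-50187468, minus strand), an olfactory receptor gene, was covered in full by every list except P3 KO, where 0 bases were covered. The promoter of Olfr722 (chr14:49901892-49902191, minus strand), also an olfactory receptor gene, had 0 bases covered in both E13.5 lists and in P3 KO and all 300 in the other 5 lists. These 3 promoters shared a complete call at P0 in both genotypes, and only that of Olfr730 was called at E13.5. The Lrrc23 promoter (chr6:124779678-124779977, minus strand) had 14 CpG and no covered base in any embryonic list. It had 85 covered bases in P0 het, 241 in P0 KO, 300 in P3 het and 0 in P3 KO.

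Letter motifs were searched on both strands. TATAAA, the core of the TATA box, was found in 13 of the 41 promoters (31.7%, interval 19.6 to 47.0%), in 30.2% of the promoters kept in both genotypes and in 13.6% of all autosomal promoters. CACGTG, an E-box, was found in 0 of 41, which allows a share of up to 8.57% by the Wilson limit, and in 3.17% of the promoters kept in both and 7.14% of all. At this number of promoters no difference between members and the kept promoters was detectable for either motif.

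The fate of the P0 bins at P3 was counted first. Of the 260866 bins called in both P0 lists, 194226 were kept in both genotypes at P3 and 28860 were lost in both. Loss in KO alone gave the 12662 members (4.85% of the P0 bins, interval 4.77 to 4.94%). Loss in het alone gave 25118 bins (9.63%), here called the mirror set. Members were therefore fewer, with 0.504 member bins per mirror bin. This ratio moved to 0.553 when the longest peaks of both P3 lists were taken in equal numbers. That setting kept every P3 het peak and dropped only the shortest P3 KO peaks, so it matched peak numbers and not covered length. The direction was shared by the autosomes, on which the ratio ran from 0.406 on chromosome 11 to 0.607 on chromosome 5. The share of P0 bins that were members ran from 3.61% on chromosome 11 to 5.81% on chromosome 12, with a median of 4.71%. Along the chromosomes it varied little: in 10 equal parts of each chromosome it lay between 4.40% and 5.23% and did not rise or fall steadily.

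**Figure D1:**
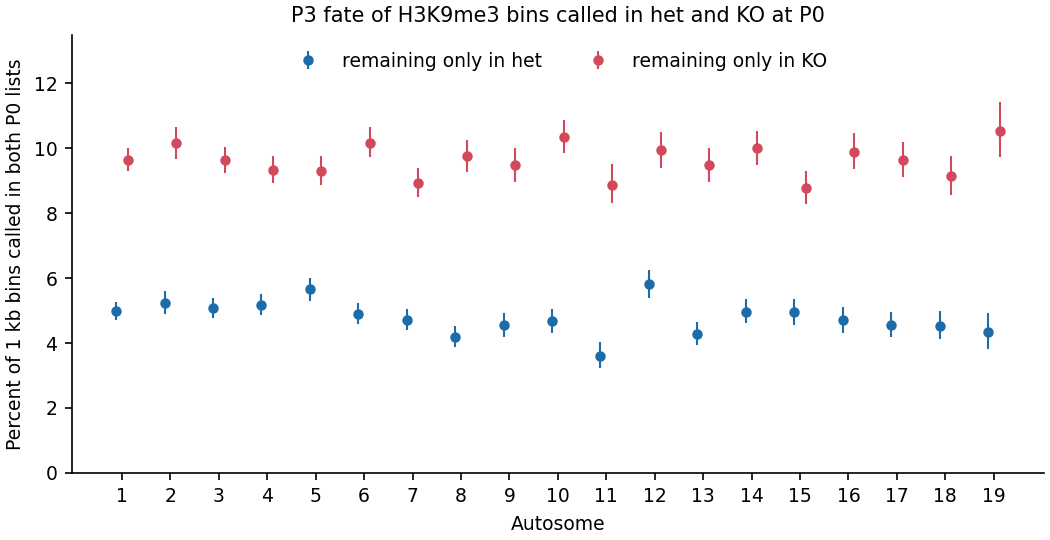
Percent of bins called in both P0 lists that remained only in het (blue) or only in KO (red) at P3, for each of the 19 autosomes; bars are 95% Wilson intervals. Blue points lie between 3.61% and 5.81%, all below the red points, which lie between 8.78% and 10.5%.

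Within the members, called length was high in 3 of the lists that chose them and low in the fourth. P0 het peaks covered 92.9% of the member length, P0 KO peaks 89.6%, P3 het peaks 87.5% and P3 KO peaks 13.2%. In 7395 of the 12662 member bins (58.4%) no base pair lay in a P3 KO peak. The threshold thus cut through a continuous distribution: 1944 members had 400 to 499 bp in P3 KO peaks, and 3331 bins with the same other calls had 500 to 599 bp and were not members. In the bins just inside the threshold 69.8% were called in E16.5 KO, and in those just outside 74.3%. In members without a P3 KO base the share was 65.2%. It was 73.9% in members with 1 to 99 bp and 71.0% in those with 100 to 399 bp, so it did not rise steadily.

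Most member runs were short. Of the 9463 runs, 7191 (76.0%) were 1 bin long, 1657 were 2 kb, and 615 (6.499%, interval 6.02 to 7.01%) were 3 kb or longer. In the mirror set 963 of 19436 runs (4.95%, 4.66 to 5.27%) reached 3 kb. The member share was the higher on 16 of 19 autosomes. The tail of the distribution held few runs: 65 member runs and 71 mirror runs were at least 5 kb long, and 4 member runs and no mirror run reached 10 kb. The longest member run was 15 kb and the longest mirror run 9 kb. With the longer 50% of the peaks of every list, 31.5% of the member runs were 3 kb or longer. The share of long mirror runs was not computed under that setting, so whether the excess of long member runs holds there was not tested.

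**Figure D2:**
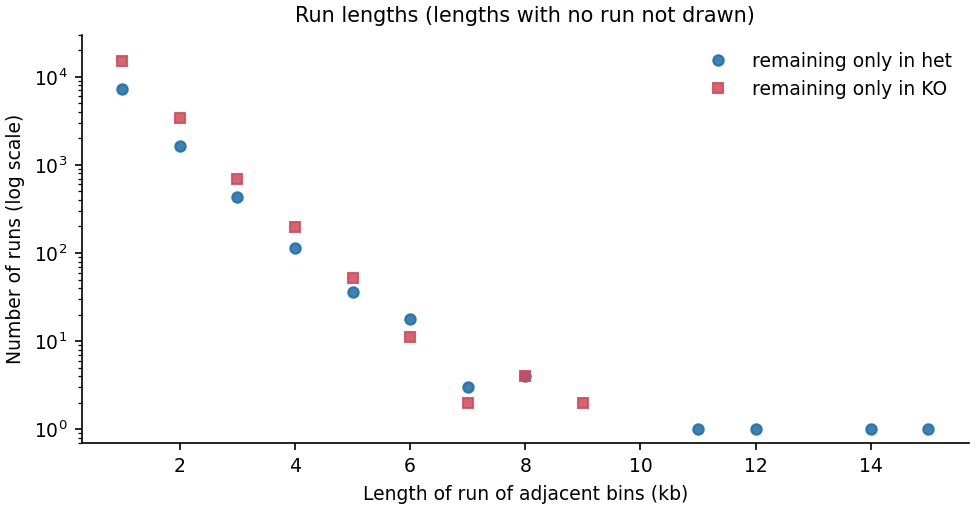
Number of runs (log scale) by run length in kb for bins remaining only in het (blue circles) and only in KO (red squares). Red lies above blue up to 5 kb, and beyond 9 kb there are 4 blue points of 1 run each, at 11, 12, 14 and 15 kb.

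The runs were of 2 kinds. A run was called bordering when at least 1 of the 2 bins next to it was called in P3 KO, and detached otherwise. Bordering runs thus lie beside a P3 KO call, although 1569 of them (23.4%) held no base of a P3 KO peak. Detached runs are places with no adjoining P3 KO call. Of the member runs, 6692 (70.7%) were bordering and 2771 (29.3%) detached. In 546 runs both neighbours were called in P3 KO, that is, the run was a gap in a KO domain. Of the detached runs, 1742 lay at least 5 kb and 471 at least 20 kb from any P3 KO peak. Long runs made up 8.55% of the detached member runs (interval 7.57 to 9.65%) and 3.79% of the detached mirror runs (3.35 to 4.28%). Among bordering runs the shares were 5.65% (5.12 to 6.23%) and 5.53% (5.15 to 5.94%). The excess of long member runs was thus in the detached ones. Detached runs were the smaller part of both sets, and their share was lower in members than in the mirror set on 18 of 19 autosomes (29.3% against 33.1% over all).

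Whole peaks gave the same picture. Members lay in 8920 P3 het peaks, of which 2594 (29.1%, interval 28.1 to 30.03%) had no base in common with a P3 KO peak. Mirror bins lay in 18235 P3 KO peaks, of which 6101 (33.5%, 32.8 to 34.1%) had no P3 het counterpart. Among holding peaks of at least 3 kb the order was the other way, with 622 of 5182 P3 het peaks (12.003%, 11.1 to 12.9%) and 512 of 9116 P3 KO peaks (5.62%, 5.16 to 6.11%) unmatched.

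The P0 peaks over detached runs differed in length between genotypes, in lists that also chose the members and set the run edges. The median length of the P0 peak over a detached member run was 3.22 kb in het (quartiles 1.79 and 5.54 kb) and 1.69 kb in KO (1.25 and 2.75 kb). Over bordering member runs the medians were 5.78 kb in het and 4.96 kb in KO. Over detached mirror runs the order was opposite and the gap smaller, with 1.52 kb in het and 2.04 kb in KO. Over all autosomal peaks the medians were 2.48 kb in P0 het and 2.35 kb in P0 KO. Of the bins next to member runs, 17.7% were called in P0 het only and 4.96% in P0 KO only, and next to mirror runs 3.30% and 15.1%. A neighbour called in P3 het but not in P3 KO cannot be called in both P0 lists, or it would be a member. Part of these differences is therefore fixed by the rule.

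The surroundings of long runs were followed outward. Directly outside member runs of 3 kb or more (1230 edges), 68.2% of bins were called in P0 het, 51.5% in P0 KO, 54.9% in P3 het and 39.3% in P3 KO. At 15 kb from the edge the shares were 26.8%, 24.1%, 22.0% and 19.02%. P3 het and P3 KO were nearer to each other at 15 kb than beside the run. The rule fixes both lists inside the run and peaks can extend past its edge, so part of the gap beside the run follows from the rule. The surroundings of mirror runs of that length were more densely marked: at 15 kb, 33.8% of bins were called in P0 het, 35.3% in P0 KO and 41.3% in E16.5 het, the last against 28.2% around member runs.

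**Figure D3:**
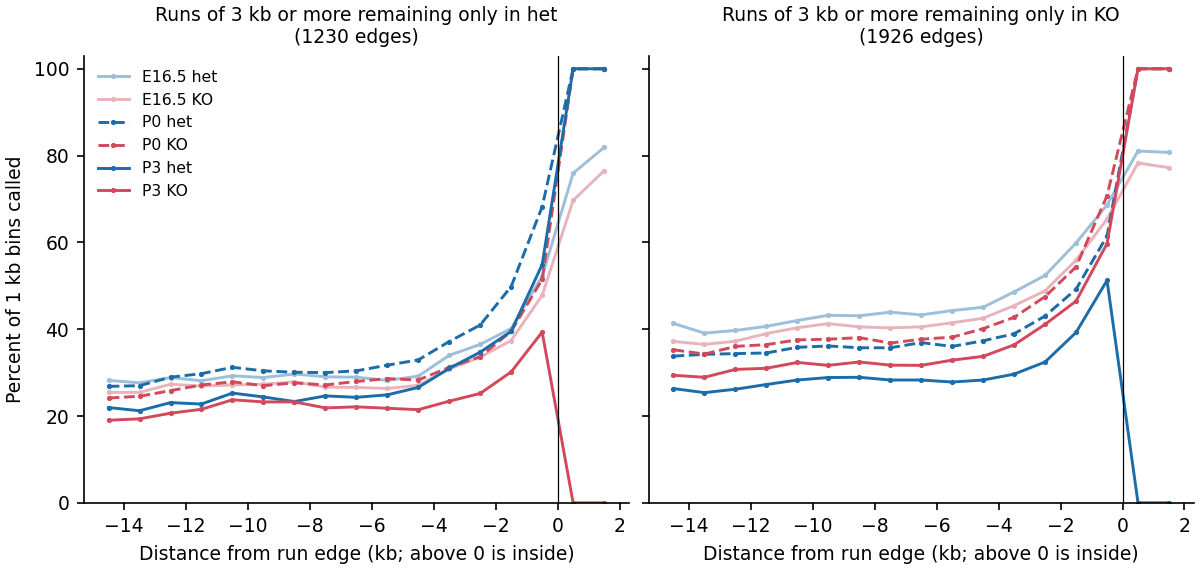
Percent of 1 kb bins called in the E16.5, P0 and P3 lists by distance in kb from the edge of runs of 3 kb or more, remaining only in het (left, 1230 edges) or only in KO (right, 1926 edges); values above 0 are inside the run, where the rule fixes the P0 and P3 calls at 0 or 100%. Outside member runs all lines fall from between 39.3% and 68.2% at the first bin to between 19.02% and 28.2% at 15 kb.

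The embryonic lists were not used to choose the members, and they show what these sites had been before birth. Of the 12662 member bins, 9087 (71.8%) were called in E16.5 het and 8555 (67.6%) in E16.5 KO. Over all bins called in both P0 lists the shares were 79.6% and 77.4%, and over all autosomal bins 11.9% and 10.9%. At E13.5, 4922 members (38.9%) were called in het and 5509 (43.5%) in KO, against 47.9% and 51.5% of the P0 bins and 6.49% and 7.4% of all autosomal bins. No embryonic list called 2665 members (21.0%), against 16.3% of the P0 bins, and all 4 embryonic lists called 3934 (31.1%), against 42.9%. Members were therefore marked before birth less often than the average P0 bin. Another 2902 (22.9%) were called in both lists at E16.5 and in neither at E13.5.

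By embryonic calls, members stood between the kept bins and the mirror bins. In E16.5 KO the shares were 84.6% of bins kept in both, 67.6% of members, 62.4% of mirror bins and 45.8% of bins lost in both. Members lay below the kept bins in each of the 4 embryonic lists on 19 of 19 autosomes. They lay above the mirror bins in E13.5 het by 11.6 percentage points (autosomes 5.83 to 17.8) and in E13.5 KO by 11.1 points (3.87 to 15.9), on 19 of 19 autosomes in both. At E16.5 the gap was 5.50 points in het, on 18 of 19 autosomes, and 5.14 points in KO, on 17 of 19. Sites lost in KO alone were thus called before birth more often than sites lost in het alone.

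**Figure D4:**
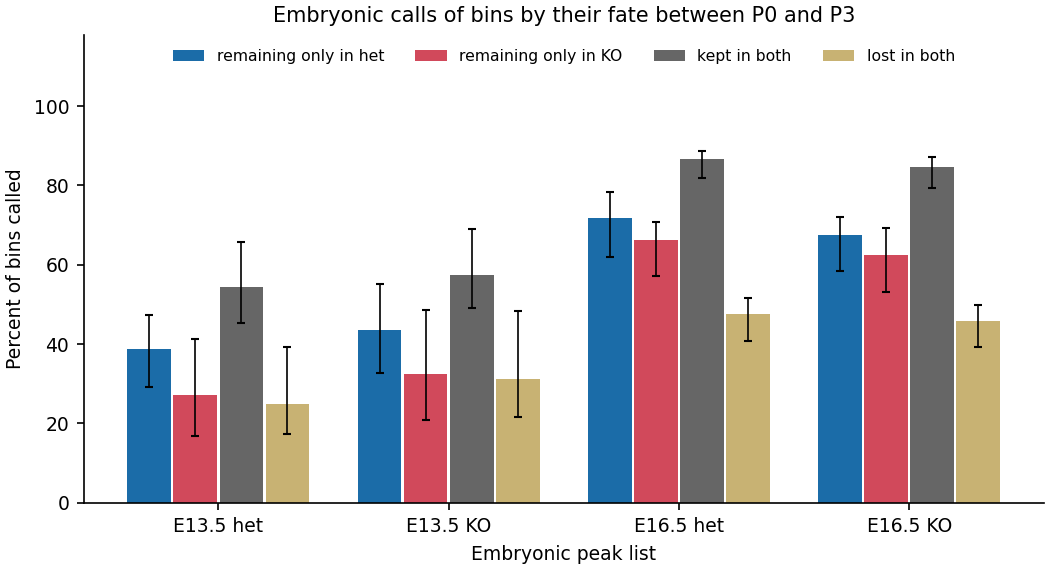
Percent of bins called in each embryonic list (x axis) for bins remaining only in het, remaining only in KO, kept in both and lost in both; black bars run from the lowest to the highest of 19 autosomes. In every list the order is kept, only in het, only in KO, lost, with 67.6% of the bins remaining only in het called in E16.5 KO.

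At E13.5 this order held for both kinds of run but not for long runs. Among detached runs, 31.3% of member bins and 18.8% of mirror bins were called in E13.5 het, and among bordering runs 42.3% and 31.4%. In runs of 3 kb or more the E13.5 het shares were 39.6% of member bins and 39.8% of mirror bins, with members higher on 9 of 19 autosomes. At E16.5 the order in these long runs was the other way, with 79.3% of member and 81.5% of mirror bins called in het, and 73.5% and 78.2% in KO. Members were higher on 5 of 19 autosomes in both E16.5 lists. Detached members were marked before birth less often than bordering ones, with 28.6% (interval 27.2 to 30.1%) against 17.6% called in no embryonic list, a difference in that direction on 19 of 19 autosomes.

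The balance of the genotypes before birth was compared between the sets of bins. At E16.5, het alone called 1122 members and KO alone called 590, a ratio of 1.90. That ratio was 1.96 in the mirror set, 2.08 in kept bins, 1.27 in bins lost in both and 2.22 over all autosomal bins, where the E16.5 het list is the larger. At E13.5, het alone called 463 members and KO alone 1050, a ratio of 0.441, against 0.383 in the mirror set, 0.525 in kept bins, 0.330 in bins lost in both and 0.438 over all autosomal bins. The ratios of members lay within the range over autosomes of the mirror set, 1.14 to 3.14 at E16.5 and 0.140 to 0.541 at E13.5. Detached members had a ratio of 2.78 at E16.5, bordering members 1.61 and detached mirror bins 2.24, and over autosomes the detached members ran from 0.800 to 7.33.

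The 10 longest member runs are given with their position on mm10. The longest spanned 15 kb (chr12:27881001-27896000), 538.3 kb from Sox11, a transcription factor gene of neural development, and 541.8 kb from Dcdc2c. Called length, het before KO, was 11.7 and 10.3 kb for E13.5, 14.7 and 14.8 kb for E16.5, 15 and 14.5 kb for P0, and 14.8 and 0 kb for P3. Every list except P3 KO thus covered most of this run. The run of 14 kb lay 329 kb further on in the same desert between Sox11 and Dcdc2c (chr12:28225001-28239000). In the same order it had 11.3 and 7.49 kb for E13.5, 12.8 and 10.6 kb for E16.5, 13.7 and 14 kb for P0, and 14 and 0 kb for P3. Both runs were detached, with the nearest P3 KO peak 8.12 kb and 2.74 kb away.

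The 1 Mb centred on both runs was read next, and it includes the runs themselves. Of the 146 P0 bins from position 27600001 to 28600000 on chromosome 12, 53 were members (36.3%), 10 mirror bins, 75 kept and 8 lost, and the members formed 12 runs. Called length in this window was 155.02 kb in het against 180.7 kb in KO for P0, and 176.8 kb against 139.5 kb for P3. The window was picked after its values were seen, and the runs it was centred on supply 15 and 14 of its members. Its share of members is therefore not comparable with that of windows placed without regard to members. KO had the larger called length at P0 and the smaller at P3 there, but the choice of window fixed part of the P3 difference. In both runs the rule sets P3 het as called and P3 KO as not called. P3 het peaks covered 14.8 and 14 kb of them, and P3 KO peaks 0 kb. Over 1871 fixed windows of 1 Mb with at least 50 P0 bins, the median share of members was 4.29% and the highest 28.9%, and members outnumbered mirror bins in 276.

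A run of 12 kb (chr1:194409001-194421000) lay 198.8 kb from Plxna2, a semaphorin co-receptor gene. Peaks of het and KO covered 4.82 and 3.71 kb for E13.5, 11.3 and 10.2 kb for E16.5, 11.7 and 11.3 kb for P0, and 11.9 and 0 kb for P3. A run of 11 kb (chr5:87603001-87614000) lay between Sult1e1, which encodes the oestrogen sulfotransferase, and the casein gene Csn1s1, 11.4 kb and 52.2 kb away. It was covered over 4.78 and 4.80 kb for E13.5, 9.32 and 10.5 kb for E16.5, 11 kb in both lists for P0, and 11 and 0 kb for P3. These 4 runs, the only ones of 10 kb or more, were all detached and all marked in both genotypes at each earlier stage.

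The runs of 8 kb were more varied. The run on chromosome 14 near Adam7 (chr14:68446001-68454000) was covered over all 8 kb in 7 lists and 0 kb in P3 KO. The run between Olfr739 and Olfr740 (chr14:50444001-50452000) was covered over 6.52 to 8 kb in those 7 lists and 0 kb in P3 KO. The run between Il15 and Zfp330 (chr8:82565001-82573000) had 1.502 kb in het and 0 kb in KO for E13.5, then 4.05 and 8 kb for E16.5. The run between Csmd3 and Trps1 (chr15:49505001-49513000) had 2.81 and 4.14 kb for E13.5, then 4.99 and 5.14 kb for E16.5. Of the 3 runs of 7 kb, that in Sntg1 (chr1:9132001-9139000) was called at E16.5 over 7 kb in het and 0 kb in KO, then over 7 kb in both lists at P0. It was the only one of the 10 whose E16.5 KO call was at 0. The run near Prdm13 (chr4:21393001-21400000) had 6.79 kb in het at E16.5 and 3.36 kb in KO.

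**Figure D5:**
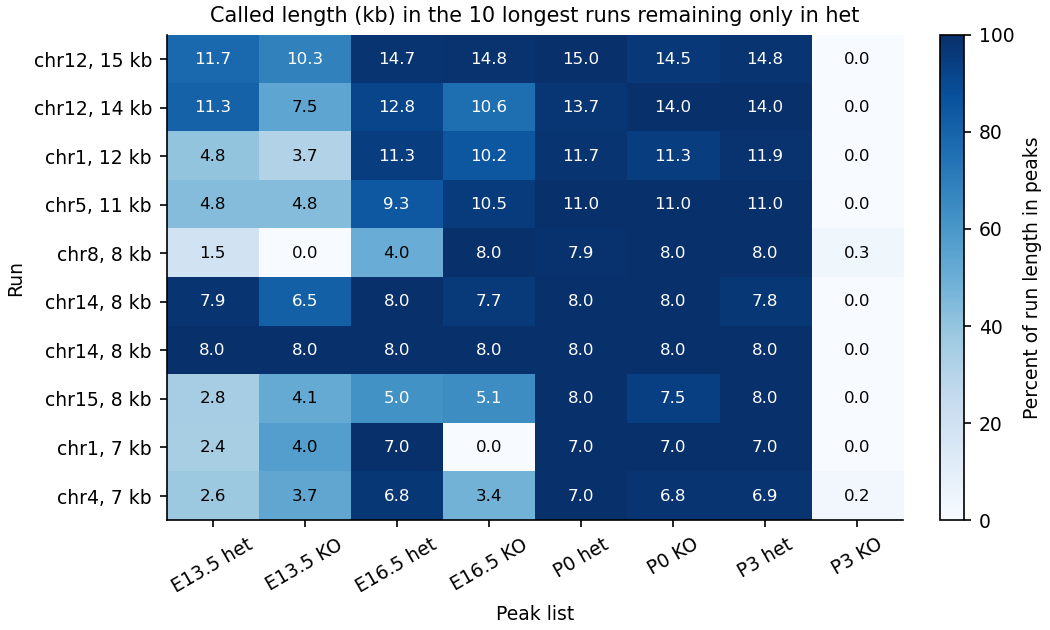
Called length in kb (printed) and as percent of run length (colour) in the 8 peak lists (x axis) for the 10 longest runs remaining only in het (y axis, by chromosome and length). The P3 KO column holds at most 0.3 kb, and the E16.5 columns are filled in whole or in part except for the chromosome 1 run of 7 kb, at 7.0 kb in het and 0.0 kb in KO.

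Runs called at P0 in both genotypes but in no embryonic list were short. The longest with every bin uncalled in the 4 embryonic lists were 4 kb, between Olfr948 and Olfr951 (chr9:39367001-39371000) and between Dnah5 and Ctnnd2 (chr15:28532001-28536000). In the first of these, P0 peaks covered 4 kb in het and 3.53 kb in KO, P3 het peaks covered 3.68 kb, and the other 5 lists covered 0 kb. The next 3 taken were 3 kb long, and the run in Cdh20, a cadherin gene, was among them. The longest runs with every bin called in all 4 embryonic lists were that near Adam7 and 2 of 6 kb. Of these, a run between Cyp3a41b and Cyp3a41a, cytochrome P450 genes of the liver, (chr5:145657001-145663000) was covered over 5.71 to 6 kb in 7 lists and 0 kb in P3 KO. The other lay 2.34 kb from Epm2a, the laforin gene (chr10:11462001-11468000), with 5.97 to 6 kb in 7 lists and 0 kb in P3 KO. The remaining 2 were 5 kb, near Ralyl and between Cdh9 and Cdh10.

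Members lay mostly outside genes. The midpoint of 2107 member bins (16.6%, interval 16.002 to 17.3%; autosomes 11.7 to 21.3%) fell in a protein-coding gene body, against 21.9% of mirror bins, 19.9% of kept bins and 40.003% of all autosomal bins. The share was below that of the mirror set on 18 of 19 autosomes and below that of kept bins on 17 of 19. Among detached runs it was 18.6% in members and 27.9% in the mirror set. In runs of 3 kb or more the order was the other way, with 15.0% and 13.8%, and members were higher on 12 of 19 autosomes. Bins over 100 kb from any protein-coding gene made up 48.3% of members, 42.9% of mirror bins and 28.8% of all autosomal bins. Within 1 kb of a gene end lay 208 member bins (1.64%), against 2.09% of mirror bins, 2.16% of kept bins, 1.80% of bins lost in both and 4.42% of all autosomal bins. The share was thus low in all 4 sets of P0 bins.

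Of the 6572 protein-coding genes with a P0 bin in the body, 1091 (16.6%) held a member, 688 of them a single one. The 10 genes with the most members were between 635.7 and 2241 kb long, and ranking by count favours genes with many P0 bins. Members made up between 7.41% (Fstl5) and 30% (Zfhx3) of their P0 bins, against 4.85% of all P0 bins. The genes were picked by their member counts, so their shares are not comparable with that of all P0 bins. Cdh18, a type II cadherin gene of 928.6 kb on chromosome 15, held 23 members in 11 runs, the longest of 6 kb, beside 8 mirror, 80 kept and 14 lost bins. Sntg1, a syntrophin gene, and Naaladl2 held 20 members each, but more mirror bins, 30 and 29. Nkain2 held 19 members and 6 mirror bins, and Lingo2, a leucine-rich repeat gene of neurons, 15 and 5. Lrp1b, a low-density lipoprotein receptor family gene, held 15 members and 17 mirror bins. Cntnap2 held 13 and 21, Fstl5 12 and 22, and Dlg2, a synaptic scaffold gene, 12 and 10. Over all genes with a P0 bin, 607 had more members than mirror bins and 2169 had fewer.

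Zfhx3 was the gene of these 10 with no mirror bin. It encodes a zinc finger homeobox transcription factor and spans 682.3 kb on chromosome 8 (chr8:108279311-108961636). Of its 50 P0 bins, 15 were members, 35 were kept, and 0 were mirror or lost bins. The members formed 4 runs, among them 2 of 6 kb. The run chr8:108420001-108426000 was covered in het and KO over 2.73 and 1.29 kb for E13.5, 5.37 and 5.12 kb for E16.5, 5.58 and 5.70 kb for P0, and 6 and 0 kb for P3. The run chr8:108662001-108668000 was covered over 2.83 and 1.92 kb for E13.5, 3.71 and 4.08 kb for E16.5, 6 kb in both for P0, and 6 and 0 kb for P3. Peaks of het and KO covered, over the whole Zfhx3 body, 25.8 and 24.2 kb for E13.5, 33.1 and 31.0 kb for E16.5, 58.0 and 76.6 kb for P0, and 96.0 and 64.0 kb for P3. KO was thus the higher at P0 and the lower at P3. The P3 lengths include the 15 members, where the rule sets het as called and KO as not called, so part of this difference was fixed.

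At gene ends, 174 runs lay within 1 kb of an end of 181 genes. The longest, 7 kb, overlapped the end of Orc6, a subunit gene of the origin recognition complex (chr8:85307001-85314000). Peaks of het and KO covered 1.95 and 3.68 kb of it for E13.5, 1.51 and 7 kb for E16.5, 6.55 and 7 kb for P0, and 7 and 0 kb for P3. KO was therefore called over the whole run at E16.5 and P0 and not at P3. Runs of 6 kb ended beside Olfr765 and Olfr826. That at Olfr765 (chr10:129040001-129046000) had 5.35 kb in het and 0 kb in KO for E13.5, 6 and 5.995 kb for E16.5, 6 kb in both for P0, and 6 and 0 kb for P3. Vmn2r82 had a run of 4 kb. The runs at Olfr1221, Tecrl, Il23r and Tnfrsf26, and the run shared by Lrrc42 and Hspb11, were 3 kb.

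Gene lists were read with 5 kb on each side of a gene. Over all protein-coding genes, 1540 of 8931 genes with a P0 bin held a member (17.2%), and 4.24% of their P0 bins were members, with 0.401 members per mirror bin. Zfp zinc finger genes held a member in 27 of 174 (15.5%), and 5.21% of their P0 bins were members (interval 3.92 to 6.90%). Zfp804b held 6 members and 18 mirror bins, and Zfp964, Zfp457 and Zfp677 held 3 each with no mirror bin. Olfr olfactory receptor genes held one in 108 of 613 (17.6%) and 5.04% of their bins (4.34 to 5.85%). Olfr765 held 5 members and no mirror bin, Olfr826 4 and none, Olfr687 4 and 2, and Olfr740 4 and 1. Vmn1r and Vmn2r genes held one in 50 of 185 (27.0%), with 4.18% of bins (3.37 to 5.18%) and 0.357 members per mirror bin. Vmn2r82 held 4 members and 1 mirror bin, Vmn2r109 4 and none, Vmn2r57 3 and 1, and Vmn2r103 3 and 5. Pcdh protocadherin genes held one in 9 of 42, with 9 members and 16 mirror bins in Pcdh15, 2 and 7 in Pcdh9, and 2 and 0 in Pcdhb7. In these families, 4.18% to 5.47% of P0 bins were members, with intervals that overlapped each other.

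Among silencing and germline genes, 4 held a member. Of 22 autosomal genes of H3K9 methylation and silencing, among them Setdb1, Trim28 and Dnmt3l, 9 had a P0 bin and 0 held a member, with 0 members in 29 P0 bins (Wilson limit 11.7%). Of 38 germline, piRNA and meiosis genes, 17 had a P0 bin and 4 (23.5%) held 1 member each, 4.88% of their 82 P0 bins (interval 1.91 to 11.9%). These were Zbtb16, a transcription factor gene of spermatogonial progenitors, Gfra1, a GDNF co-receptor gene, Mov10l1, a piRNA helicase gene, and Mei1, a gene of meiotic double-strand breaks. Mov10l1 also held 14 kept bins, and the single P0 bin of Mei1 was its member.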

How the data were processed

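H3K9me3 ChIP-seq peaks of 8 groups (het and KO at 4 stages) were analysed, 1 list for each pair of H3K9me3 samples. The lists as the authors deposited them hold chromosome, start and end of each peak in bp, with no height, score or p-value. Per the submitters' processing notes, the build named was mm10, and the tools named were bcl2fastq 2.20, cutadapt 1.18, Bowtie2 2.3.4.1, deepTools 3.5.0 and HOMER 4.10, with no role given. The peak caller's settings, the use of the H3 libraries, depth and pooling are not given in the sources used here. Where a peak ends depends on such settings, and most member runs lie at the edge of a P3 KO peak. Lists were assigned to groups by the stage and genotype in their names.

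Bins, fates and runs were computed in Python 3.11.15 with numpy 2.4.6 and pandas 2.3.3, and intervals with scipy 1.17.1. The code was tested on simulated peaks. Gene positions and promoters were RefSeq, GRCm38.p6. Overlapping gene bodies were merged for midpoints. Printed positions are 1-based. Named runs were the 10 longest, the 5 longest in none and in all embryonic lists, the 10 genes with most member bins, up to 10 genes at gene ends and up to 4 genes a list. The members and lists were chosen with earlier results of these data known. Alternatives were 7: 25% or 75% of a bin, bins shifted by 500 bp, bins of 2 kb, the longer 50% of peaks, equal P3 peak numbers, and no base in a peak of the losing list.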

Additional observations from a re-analysis of the deposited data

Results flagged for a closer look

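Within the member bins, which genotype had more called length differed between the embryonic stages. At E13.5 the mean called length per 1 kb bin was 371 bp in het and 416 bp in KO, a difference of -45.0 bp. At E16.5 it was 689 bp in het and 648 bp in KO, a difference of 41.2 bp. Each stage had 1 list per genotype, and the difference between the stages was not tested. The mirror set had the same directions, with 268 and 318 bp at E13.5 and 643 and 606 bp at E16.5. So did the whole lists, which covered 159.7 Mb of the autosomes in het and 181.9 Mb in KO at E13.5. At E16.5 they covered 292.6 and 268.7 Mb. The directions are therefore not particular to the members.

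The X chromosome lay outside the autosomal rule. On it, 832 bins met the same calls, 6.79% of 12248 bins called in both P0 lists (interval 6.36 to 7.25%), above the highest autosome at 5.81%. Loss in het alone gave 1956 bins (15.97%), also above the highest autosome, at 10.5%. The X had 0.425 members per mirror bin, against 0.504 over the autosomes. The X bins formed 644 runs, the longest of 7 kb. Of the X bins, 82.7% were called in E16.5 het and 83.4% in E16.5 KO, and 40.1% and 46.5% at E13.5. The embryonic shares of all P0 bins on the X are not given here for comparison.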

How the results depend on the processing

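Of 42 values under the 7 alternatives, 26 lay within the interval of the reported value, or within 1.5 times it for the number of members, and 16 moved. Members stayed fewer than mirror bins in all 7. The number of members was 6421 with bins of 2 kb, which hold more sequence each, and 7395 without any P3 KO base. Members per mirror bin were 0.493 at 25% of a bin, 0.550 with the longer 50% of peaks and 0.553 with equal P3 numbers. With the longer 50% of peaks, 69.6% of members were called in E16.5 KO, 19.5% were called in no embryonic list, 31.5% of runs reached 3 kb and 14.3% of bins were genic. Without any P3 KO base the first 3 of these were 65.2%, 23.2% and 7.44%. Runs of 3 kb or more made up 7.75% at 25% of a bin, 7.86% at 75% and 7.94% with bins of 2 kb (2 bins or more), and 15.8% of bins were genic at 75%. The cause of these moves was not tested. No paired analysis was possible because each group is 1 list with no replicate, and for the same reason no replicate could be left out. Depth was unknown, so a bin not called may be a bin below the calling threshold.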

Other observations

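Of 919 autosomal miRNA hairpins in RefSeq, 1 (Mir6388, on chromosome 12 at 115695720 to 115695794, minus strand) overlapped a member bin. Another 2 overlapped mirror bins, 40 overlapped kept bins and 2 overlapped bins lost in both. Members made up 4.85% of all P0 bins, and 1 hairpin is too few to set against that share. Of the windows tied for the most members among fixed 1 Mb windows, that on chromosome 2 from 98000001 to 99000000, held no protein-coding gene and had 40 members and 25 mirror bins among 310 P0 bins. The window from 145000001 to 146000000 on chromosome 5, which holds a cluster of Cyp3a genes, also had 40 members and 25 mirror bins, among 376 P0 bins.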
